A study of Rattus norvegicus with 4 samples.

Results

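Abcc9 encodes SUR2, the sulphonylurea receptor that forms the regulatory subunits of ATP-sensitive potassium (K-ATP) channels. The locus was taken as every table row whose gene name was Abcc9, in cortical astrocytes that had been preconditioned by brief oxygen and glucose deprivation (OGD) or left untreated. The rule gave 1 transcript, and so 1 of the 17283 named loci in the tables, together with any row within 100 kb as context. The gene was picked for study because of its difference between these same libraries. Its own difference between groups is therefore described here and not tested.

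A K-ATP channel joins pore-forming Kir6 subunits to sulphonylurea receptors. It is held shut by ATP and opened by ADP bound to magnesium, so that the membrane's potassium conductance follows the energy state of the cell. Kcnj8 encodes the pore subunit Kir6.1 and lies next to Abcc9 in the genome, and the pair is a known signature of pericytes and vascular smooth muscle. Kcnj11 (Kir6.2) and Abcc8 (SUR1) encode the other pore and receptor subunits. K-ATP channels have long been studied in ischemic preconditioning of heart and brain.

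The astrocytes came from cerebral cortices of newborn Wistar rats, under 24 h old, and were kept on coverslips above neurons but separated from them. The OGD libraries (2) came from cells held in glucose-free medium at low oxygen for 45 min followed by 24 h of reoxygenation in normal medium. The control libraries (2) came from untreated cells. The labels do not say that replicates were separate cultures, so the spread between libraries may be technical. The lncRNA tables held 2646300 and 2513804 counts in OGD replicates 1 and 2, and 2607020 and 2631684 counts in control replicates 1 and 2.

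The Abcc9 row is the transcript NONRATT021953.2, named Abcc9.b and marked as unspliced in AceView's nomenclature. It covers chromosome 4 from 176805445 to 176807916, as the tables give it, and its listed length of 2472 bases equals that span. No genome build is named for these coordinates, because the identifiers are those of the rat, while mm9, a mouse build, is what the submitters' notes give. The row is listed as a noncoding transcript and is tied to the protein-coding gene Abcc9 by its name. Its place within the gene was not analysed here. Neither its strand nor a strand setting of the counting is given in the sources used here, so reads of the Abcc9 messenger RNA could be among its counts. The sequence of the transcript was not analysed here.

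The promoter of the gene is printed to show the start of the gene that the row is named after. No value in the tables measures it. RefSeq places it on the minus strand at chr4:177386299-177386598 in build GRCr8, from 250 bases before the transcript start to 50 bases after it. These coordinates are not those of the tables. Capitals mark a match to the core of the hypoxia response element, searched as ACGTG and GCGTG on both strands:
Abcc9 promoter: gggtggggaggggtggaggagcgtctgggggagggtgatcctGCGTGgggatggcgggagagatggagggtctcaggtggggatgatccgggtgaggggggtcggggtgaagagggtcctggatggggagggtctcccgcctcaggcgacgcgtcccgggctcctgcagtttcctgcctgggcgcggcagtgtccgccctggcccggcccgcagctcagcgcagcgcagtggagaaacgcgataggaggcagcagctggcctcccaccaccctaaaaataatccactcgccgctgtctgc
The window held 1 match, to GCGTG on the strand of the gene, which began 208 bases before the start. At least 1 match to either motif was present in 41.6% of the 33469 promoters in the table. The Abcc9 window was 69.0% G and C, against a median of 51.7% over all promoters. A match describes the letters of the window and is not a binding site.

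The Abcc9 transcript was more abundant after OGD in both libraries. It had 85 and 54 counts in OGD replicates 1 and 2, against 6 and 17 counts in control replicates 1 and 2. The lowest OGD count was therefore above the highest control count, and the groups did not overlap. After TMM scaling, which adjusts library totals by a trimmed mean of log ratios, it measured 27.3 ± 6.72 CPM (counts relative to the scaled library total) after OGD and 4.48 ± 3.25 CPM in control (SD, n = 2 each). The log2 fold change of OGD over control in edgeR's fit was 2.61 (approximate SE 0.58), or 6.10-fold. In the same fit OGD lay above control without overlap at 14.0% of the 9579 tested loci, and because Abcc9 was chosen on this contrast nothing is read from that share.

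**Figure D1:**
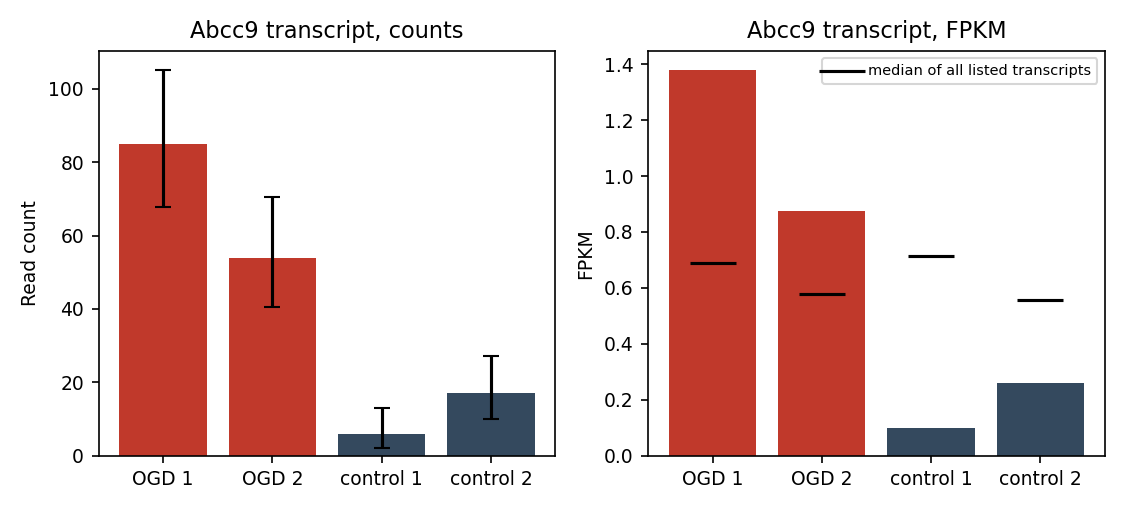
Read counts (left, with exact 95% Poisson intervals that cover counting error only) and deposited FPKM (right) of the Abcc9 transcript in the 2 OGD libraries (red) and the 2 control libraries (blue-grey). Black dashes mark the median FPKM of all 20524 listed transcripts in that library, which Abcc9 exceeds after OGD at 1.38 and 0.873 FPKM and falls below in control at 0.0973 and 0.261 FPKM.

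Per length, the transcript had 1.38 and 0.873 FPKM, a unit of fragments per kilobase of transcript and sequencing depth, in OGD replicates 1 and 2, against 0.0973 and 0.261 FPKM in control replicates 1 and 2. The median over all 20524 listed transcripts was 0.689 and 0.578 FPKM in the OGD libraries, and 0.713 and 0.556 FPKM in the control libraries. Abcc9 thus stood above the median of its library after OGD and below it in control. It exceeded 65.1% and 58.1% of transcripts in OGD replicates 1 and 2, and 19.0% and 36.7% in control replicates 1 and 2. It remained a transcript of low to middle abundance in all 4 libraries.

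The size of the difference depended on which libraries were set against each other. The widest gap was between OGD replicate 1 and control replicate 1, with a CPM ratio of 14.7 and an exact 95% binomial interval of 6.46 to 41.1. The narrowest was between OGD replicate 2 and control replicate 2, with a ratio of 3.32 and an interval of 1.90 to 6.12. These intervals cover counting error only and do not test the difference, on which Abcc9 was chosen. OGD replicate 2 over control replicate 1 gave 10.3 (interval 4.44 to 29.3), and OGD replicate 1 over control replicate 2 gave 4.73 (interval 2.79 to 8.49).

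The controls also differed from each other. Control replicate 2 had 3.10 times the CPM of control replicate 1, with an interval of 1.17 to 9.61. OGD replicate 1 had 1.42 times the CPM of OGD replicate 2, with an interval of 0.999 to 2.04. Each ratio within a group was smaller than every ratio of OGD over control, which is a description, as Abcc9 was chosen on this contrast. The narrowest ratio of OGD over control, 3.32, was close to the ratio of 3.10 within control. With control replicate 2 left out, the log2 fold change was 3.62, and with control replicate 1 left out it was 2.01. It was 2.34 without OGD replicate 1 and 2.83 without OGD replicate 2.

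By log2 fold change, Abcc9 ranked 32 of 9579 tested loci, counted from the most raised after OGD. The central 90% of all tested loci lay between -0.71 and 0.73, around a median of -0.0016. Of the 2197 tested loci whose mean count was within 1.5-fold of the 40.5 counts of Abcc9, it ranked 6. Since Abcc9 was chosen for this difference, a high rank follows from the choice and is only a description. The smallest and largest values over all tested loci were -10.18 and 8.06. Counting both directions, 54 of the 9579 loci, and 12 of the 2197, had a larger absolute log2 fold change than Abcc9.

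**Figure D2:**
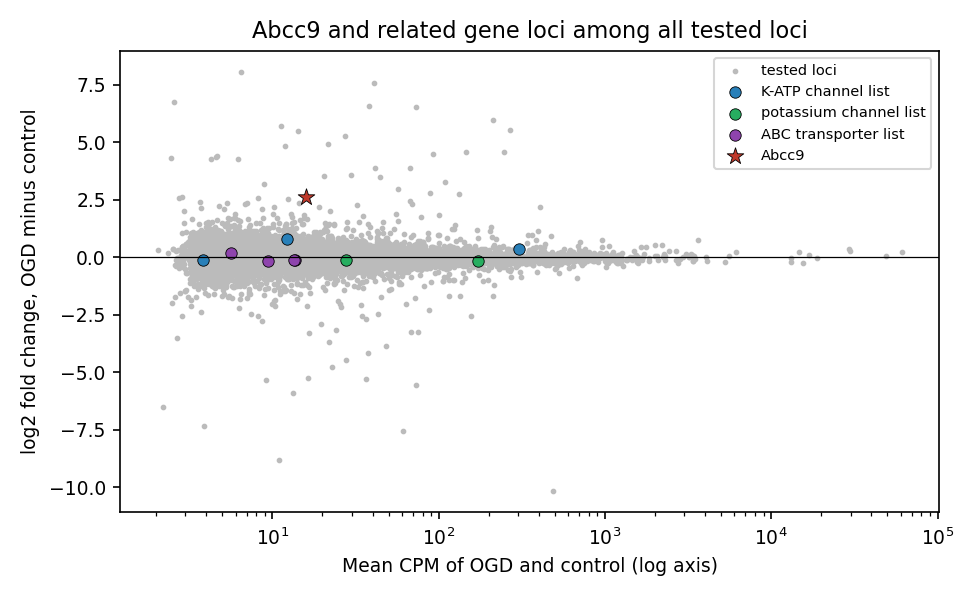
Log2 fold change of OGD over control (vertical axis) against mean CPM of both groups (log axis) for the 9579 tested loci, with Abcc9 as a star and the named loci of the K-ATP channel, potassium channel and ABC transporter lists as coloured points. Abcc9 lies at 2.61, while the 9 coloured loci lie between -0.18 and 0.81.

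The neighbourhood was examined next, since Kcnj8 adjoins Abcc9. Among the rows analysed here, 0 lay within 100 kb of the Abcc9 transcript, and 0 within 50 kb. In RefSeq's gene order, Gys2 (liver glycogen synthase), Ldhb (a lactate dehydrogenase subunit) and Kcnj8 precede Abcc9, and Cmas (which activates sialic acid) follows it. No row bore any of these 4 names, so the Kir6.1 gene was not analysed here and the receptor and its pore partner could not be compared.

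Widening the window to 500 kb brought in 12 transcripts of 9 loci. The nearest on the side of lower coordinates was at Golt1b, a Golgi transport gene, 192 kb away. On the other side it was the unannotated transcript beycha, 251 kb away. The Golt1b locus had 20 and 24 counts after OGD and 22 and 21 counts in control. These values overlapped and lay close together.

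The beycha transcript had 0 counts in both OGD libraries, against 4 and 2 counts in control replicates 1 and 2. With so few counts its level was near the floor of 3 counts per library in either group. The unannotated transcript steyzoy, 221 kb away, had 27 and 20 counts after OGD and 20 and 24 counts in control. Pyroxd1, which encodes an oxidoreductase, followed the replicate number and not the treatment, with 15 and 3 counts in OGD replicates 1 and 2 and 13 and 4 counts in control replicates 1 and 2. The locus RGD1304592, now C2cd5, had 17 and 13 counts after OGD and 26 and 15 counts in control. The unannotated stuzoy, styzoy and deecha had at most 10 counts after OGD and at most 13 counts in control.

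Recql encodes a DNA helicase of the RecQ family and had 15 and 84 counts in OGD replicates 1 and 2, against 16 and 13 counts in control replicates 1 and 2. The high value came from 1 of its transcripts, Recql.f, with 0 and 77 counts after OGD and 2 and 3 counts in control. The other, Recql.g, had 15 and 7 counts after OGD and 14 and 10 counts in control. A single OGD library thus stood apart at Recql, whereas both stood apart at Abcc9. Since Abcc9 was chosen on this contrast, the comparison is only a description. Of the 5 loci within 500 kb that had enough counts to be tested, 0 passed an adjusted p of 0.05 in edgeR's quasi-likelihood test and 0 had an unadjusted p under 0.05. DESeq2 gave an adjusted p to 4 of them and called 0. Over all tested loci edgeR called 0.0835%, with 0.0418% higher and 0.0418% lower after OGD, and 2.34% had an unadjusted p under 0.05. DESeq2 called 0.396% of the 9592 loci to which it gave an adjusted p.

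**Figure D3:**
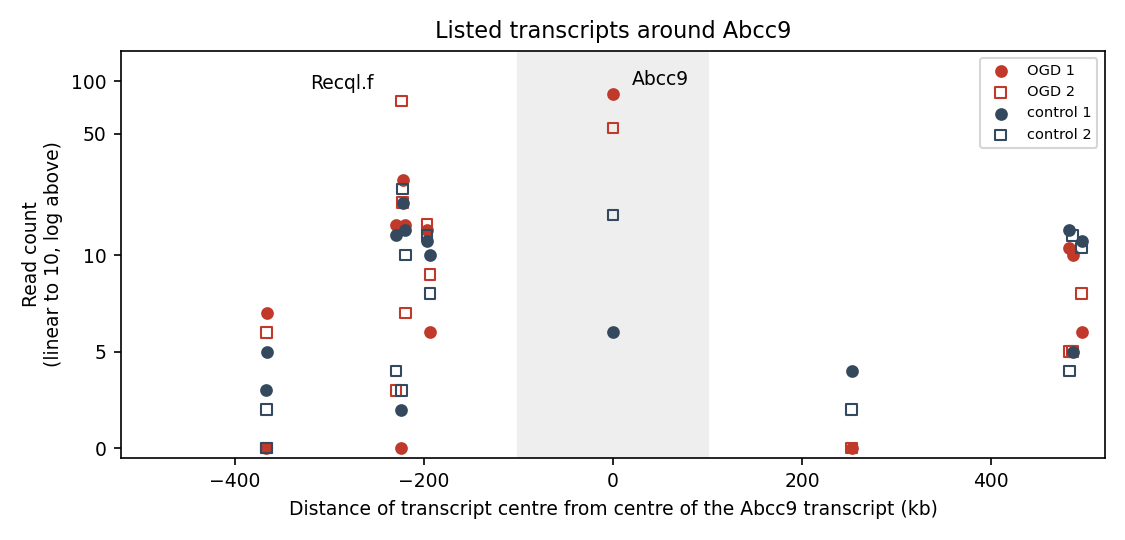
Read counts (linear to 10, log above) in the 4 libraries for the transcripts within 500 kb of Abcc9, by distance of each transcript's centre from that of Abcc9. The grey band marks 100 kb to either side and holds Abcc9 alone, at 85 and 54 counts after OGD and 6 and 17 in control.

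Subunits and partners of K-ATP channels were described as a list of 22 genes other than Abcc9. It held the remaining subunits, enzymes of energy metabolism found near the channel, and proteins that anchor or regulate it. Of the 22 genes, 7 had a locus in the tables and 3 had enough counts to be tested. By edgeR 0 of the 3 rose and 0 fell, where 0.0835% of all tested loci were called. At an unadjusted p under 0.05 there were 0 of the 3, against 2.34% of all loci, and DESeq2 called 0 of 3, against 0.396%. With shares this small, 0 of 3 says nothing particular about the list. Their median log2 fold change was 0.36, against -0.0016 over all tested loci.

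Abcc8, which encodes the other sulphonylurea receptor SUR1, had few counts in any library. Its 2 transcripts together had 2 and 0 counts after OGD and 1 and 5 counts in control. Both groups were near or under the floor of 3 counts, so no fold change is given. Per length, Abcc8.f averaged 0.0810 FPKM after OGD and 0.117 FPKM in control, and Abcc8.c averaged 0 and 0.112 FPKM, whereas Abcc9 averaged 1.13 FPKM after OGD and 0.179 FPKM in control. After OGD both libraries had more Abcc9 than either Abcc8 transcript per length, while in control the values of the 3 transcripts overlapped.

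Among the anchors, Ank2, whose product ankyrin-B holds channel subunits at the membrane, had 961 and 764 counts after OGD and 569 and 811 counts in control. These overlapped, with a log2 fold change of 0.36 (SE 0.27) that lay between 0.080 without control replicate 1 and 0.72 without control replicate 2. Ank3 (ankyrin-G) had 56 and 24 counts after OGD and 28 and 19 counts in control, a log2 fold change of 0.81 (SE 0.48) with overlap. It was 0.18 without OGD replicate 1 and 1.24 without OGD replicate 2. Stx1a, the membrane fusion protein syntaxin 1A that binds sulphonylurea receptors, had 16 and 3 counts after OGD and 9 and 12 in control. All 3 had an adjusted p of 1.00 in edgeR.

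The 4 loci too low to be tested included Ckb, the brain creatine kinase that regenerates ATP, with 7 and 5 counts after OGD and 15 and 6 counts in control. Prkce, a protein kinase C isoform studied in preconditioning, had 10 and 8 counts after OGD and 11 and 10 counts in control. Ryr2, the calcium release channel, had 1 count in each library.

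Abcc9 belongs by sequence to the ABC transporter family, although SUR2 is not known to carry a substrate. Of 15 other ABC loci in the tables, 5 were tested. By edgeR 0 of the 5 rose and 0 fell, with 0 at an unadjusted p under 0.05 and 0 of 5 called by DESeq2. Over all tested loci these shares were 0.0835% by edgeR and 2.34% at an unadjusted p under 0.05. DESeq2 called 0.396% of the 9592 loci to which it gave an adjusted p. The log2 fold changes of the 5 lay between -0.18 and 0.18, with a median of -0.099. With a library left out, some moved further from 0, as far as -0.98 and 0.78 at Abcd4. Others moved nearer to 0, such as Abca9 at -0.032 without control replicate 2. At all 5 the groups overlapped. Over all tested loci the groups did not overlap, in either direction, at 28.0%. With only 5 loci, overlap at each of them says nothing particular about the list.

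Abcd4, which takes part in lysosomal cobalamin transport, had 19 and 46 counts in OGD replicates 1 and 2 and 21 and 52 counts in control replicates 1 and 2. These sums followed the replicate number in both groups, as did its transcript Abcd4.e, with 5 and 38 counts after OGD and 13 and 23 in control. Abcd4.f had 4 and 2 counts after OGD and 3 and 19 in control. Abcd4.g had 10 and 6 after OGD and 5 and 10 in control, so both rose with the replicate number in control only. Abcf1, an ABC protein of translation without a membrane domain, had 35 and 31 counts after OGD and 31 and 42 in control. Abcc3, an organic anion exporter of the same subfamily as Abcc9, had 15 and 29 counts after OGD and 33 and 20 in control, and Abca9 had 10 and 20 after OGD and 17 and 11 in control.

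Per length, 4 of the 19 other ABC transcripts had a higher mean FPKM than Abcc9 after OGD, and 11 of 19 did so in control. The median of the 19 was 0.405 FPKM after OGD and 0.497 FPKM in control. Since Abcc9 was chosen for its difference after OGD, its place in this order is a description.

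Of 19 loci named after potassium channels or their accessory proteins, 3 were tested. By edgeR 0 of the 3 rose and 0 fell, against 0.0835% of all tested loci called. At an unadjusted p under 0.05 there were 0 of the 3, against 2.34%, and DESeq2 called 0 of 3, against 0.396%. The median log2 fold change was -0.10. Kcne1l, now Kcne5 and named for an accessory subunit of voltage-gated channels, was the most abundant, with 520 and 303 counts after OGD and 530 and 428 counts in control. Kcnip3, a calcium sensor that binds Kv4 channels, had 61 and 73 counts after OGD and 82 and 69 counts in control.

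Among inward rectifiers, the family of the K-ATP pore, Kcnj16 had 4 and 4 counts after OGD and 2 and 7 counts in control. Kcnj9 had 2 and 1 after OGD and 0 in both controls, and Kcnj6 had 0 in both OGD libraries and 1 and 1 in control. These counts are too low for a comparison. Per length, 2 of the 20 potassium channel transcripts had a higher mean FPKM than Abcc9 after OGD, and 8 of 20 did so in control.

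Because Abcc9 marks mural cells of blood vessels, loci named after other mural markers were set beside it. Of 16 marker genes, 5 had a locus, which were Abcc9, Notch3, Myh11, Cspg4 and Anpep. The other 11, among them Pdgfrb, Rgs5, Kcnj8 and Acta2, were not analysed here. Without Abcc9, the mural loci summed to 63.3 and 63.4 CPM in OGD replicates 1 and 2, and to 79.7 and 103 CPM in control replicates 1 and 2. The lower sum after OGD came from Notch3. Without it as well, a sum added after the values were seen, the other loci gave 16.2 and 31.7 CPM in OGD replicates 1 and 2 and 17.8 and 26.3 CPM in control replicates 1 and 2, which overlap. In bulk RNA, fewer cells of a type and less RNA per cell cannot be told apart.

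Notch3, a receptor needed for vascular smooth muscle, had 125 and 76 counts after OGD and 170 and 192 counts in control, at -0.81 on the log2 scale of OGD over control (SE 0.29) with an adjusted p of 1.00 in edgeR. Myh11, the smooth muscle myosin heavy chain, had 32 and 58 counts after OGD and 36 and 31 counts in control. Cspg4, the proteoglycan NG2 of pericytes and oligodendrocyte precursors, had 9 and 17 counts after OGD and 12 and 34 in control. Anpep, a membrane aminopeptidase, had 2 and 1 counts after OGD and 1 and 1 in control. By edgeR 0 of the 3 tested loci other than Abcc9 passed, against 0.0835% of all tested loci. Notch3 alone had an unadjusted p under 0.05, against 2.34% of all tested loci. DESeq2 called 0 of the 3, against a share of 0.396%. With so few loci, these counts say nothing particular about the list.

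**Figure D4:**
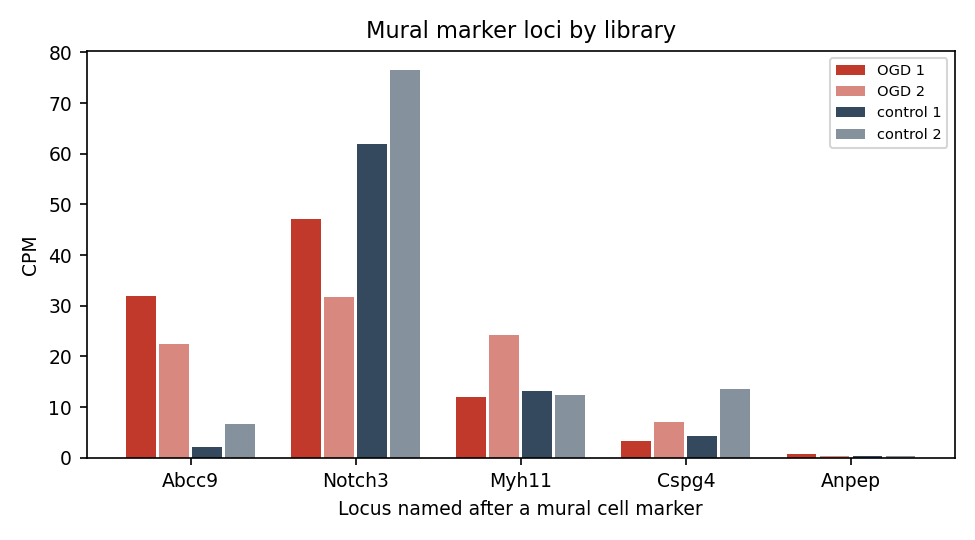
CPM of the 5 loci named after mural cell markers in the 2 OGD libraries (red shades) and the 2 control libraries (blue-grey shades). Abcc9 is higher in both OGD libraries, Notch3 is lower in both, and the OGD and control values of Myh11 and Cspg4 overlap.

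Other marker lists checked the labelled cell type as far as noncoding loci allow. Of 12 astrocyte genes, 6 had a locus, and these summed to 63.4 ± 18.9 CPM after OGD and 54.0 ± 12.7 CPM in control (SD, n = 2 each), with Gfap, an intermediate filament gene, highest. Endothelial loci (2 of 10 genes) summed to 1.65 ± 1.80 CPM after OGD and 1.89 ± 0.417 CPM in control. Oligodendrocyte lineage loci (2 of 8) summed to 3.72 ± 1.13 CPM after OGD and 3.61 ± 0.0376 CPM in control. Neuron loci (5 of 10) summed to 115 ± 7.18 CPM after OGD and 105 ± 21.2 CPM in control, led by Gria2, an AMPA receptor subunit gene. Their members differed: Syn1, a synaptic vesicle gene, had 27.8 ± 12.8 CPM after OGD and 0.563 ± 0.233 CPM in control. Gria2 had 81.5 ± 15.7 CPM after OGD and 95.4 ± 20.1 CPM in control, with overlap. Microglia loci (3 of 9), led by Ptprc, summed to 23.4 ± 17.6 CPM after OGD and 35.9 ± 10.6 CPM in control. Fibroblast and meningeal loci (3 of 7) summed to 185 and 1445 CPM in OGD replicates 1 and 2 and to 162 and 1620 CPM in control replicates 1 and 2. They followed the replicate number mostly through Lox, a collagen cross-linking enzyme gene, with 4 and 2684 counts after OGD and 4 and 3202 in control. Col1a1 and Col3a1 were also higher in replicate 2 of both groups. Col1a1 had 329 and 593 counts after OGD and 313 and 693 in control. Of the 16 tested marker loci other than Abcc9, edgeR called 0, against 0.0835% of all tested loci. Notch3 and Syn1 had an unadjusted p under 0.05, against 2.34% of all tested loci. DESeq2 called 1, Syn1, against a share of 0.396%. Syn1 had 98 and 45 counts after OGD and 2 and 1 counts in control. The part of other cells in the Abcc9 difference was not tested.

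The loci whose profile over the 4 libraries was nearest to that of Abcc9 were found by Euclidean distance between log2 CPM values, each centred on its own mean. The candidates were 1970 loci with a gene symbol and a mean of at least 20 counts. With 4 libraries from 2 groups, any locus with a similar difference between groups will score well, so these are descriptions with no test. The nearest was RGD1309634, now Fam193a, at a distance of 0.37. It had 342 and 240 counts after OGD and 43 and 78 counts in control. Like Abcc9 it was highest in OGD replicate 1 and lowest in control replicate 1.

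The next was RGD1311899, now C12h12orf43, at a distance of 0.87, with 169 and 107 counts after OGD and 31 and 50 counts in control. Ttc9c, named for a tetratricopeptide repeat protein, lay at 0.99, with 68 and 35 counts after OGD and 11 and 20 in control. Rtel1, which encodes a helicase that maintains telomeres, lay at 1.10, with 90 and 83 counts after OGD and 19 and 47 counts in control. Matn3, the gene of a cartilage matrix protein, lay at 1.16, with 191 and 219 counts after OGD and 16 and 22 in control. At all 5, both OGD libraries were above both controls, and control replicate 1 was the lowest library. None of the 5 is on chromosome 4.

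**Figure D5:**
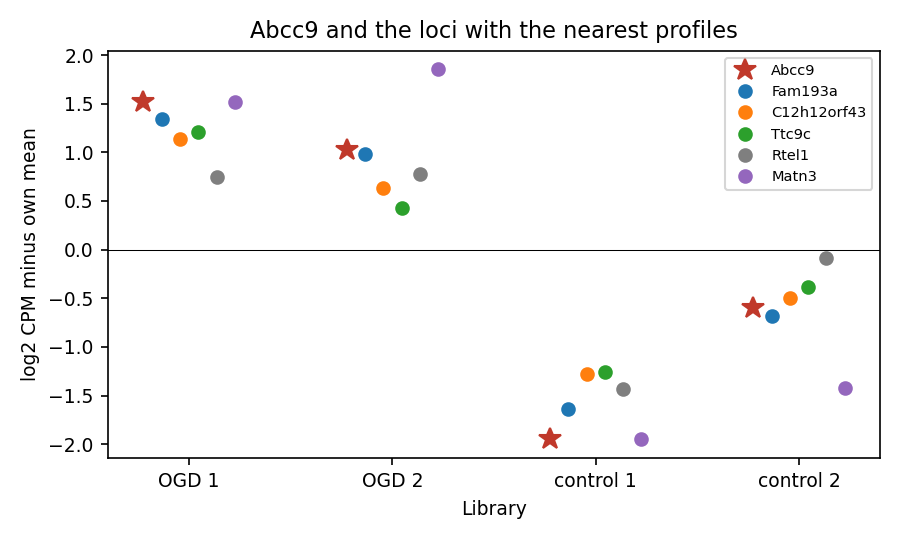
Log2 CPM minus the locus's own mean in the 2 OGD and the 2 control libraries, for Abcc9 (stars) and the 5 loci with the smallest distance to it (points). All 6 lie above 0 in both OGD libraries and below 0 in both controls, and control replicate 1 is the lowest at each.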

How the data were processed

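RNA of 4 libraries (2 OGD, 2 control, grouped by sample title) was analysed from 1 deposited table per library, each with the same 20524 transcripts. Per the file headers, the authors deposited raw read counts and FPKM. The submitters' processing notes name HISAT2, StringTie and mm9 but no versions, and the sources used here give no read counter. Every deposited FPKM above 0 implied 1 total per library within 0.0494%, from 24934040 to 26371055, of which lncRNA counts were 9.98% to 10.6%.

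Counts were summed by gene name and chromosome into 17283 loci, fitted with edgeR 4.0.16 in R 4.3.3 (filterByExpr, TMM, quasi-likelihood F test on group), with Benjamini-Hochberg adjustment over 9579 loci. Approximate SE were derived from the log2 fold change and F. CPM use TMM totals, in which 3 counts are 1.09 to 1.25 CPM, and log2 profiles a prior count of 2. The edgeR fit was tested on simulated counts, with dispersions taken from these data. Alternatives were DESeq2 1.42.0, other scalings and filters, unsummed transcripts, a replicate block and each library left out. Names, gene order and the promoter came from RefSeq (GRCr8).

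Abcc9 and all lists were chosen with earlier results of these data known. By rule, the named loci were Abcc9, rows within 100 kb, tested K-ATP list members, the 3 most abundant and 2 of smallest p of each family, the highest locus of each marker list and the 5 nearest profiles; 2 of these loci are not reported here. Others (within 500 kb, mural markers, Syn1, untested loci) were named after their values were seen.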

Additional observations from a re-analysis of the deposited data

How the results depend on the processing

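Abcc9 was fitted under 11 alternatives. Its log2 fold change was 2.60 to 2.66 in the 7 with all 4 libraries, where the replicate block gave 2.66. It was 2.01 to 3.62 when 1 library was dropped. Both OGD libraries lay above both controls, on which contrast Abcc9 was chosen. Its sign could therefore not change when a library was dropped, and nothing is read from it. The 8 called loci turned into 38 under DESeq2, 0 with every locus kept (403 at an unadjusted p under 0.05), 1 for transcripts as deposited, 224 by unadjusted p under 0.05, and 0 to 12 when 1 library was dropped (12 without OGD replicate 2, 0 without any of the others). The replicate block gave 22. What the replicate number marks is not in the labels; same-numbered libraries deviated together from their groups with r = 0.30 across loci. For these shifts the cause was not tested. The called K-ATP, potassium channel and ABC loci stayed at 0 under every alternative run; for the potassium channel and ABC lists these were added after seeing the data. The 500 kb window held 12 transcripts and the 50 kb window 0. Of 97 values of named list loci, 86 kept direction and side. The other 11 changed sign, each when 1 library was dropped, and none of these loci was called. Those ranges were -1.63 to 0.58 for Stx1a, -0.51 to 0.11 for Kcne1l, -0.32 to 0.100 for Kcnip3, -0.98 to 0.78 for Abcd4, -0.35 to 0.22 for Abcf1, -0.82 to 0.29 for Abcc3 and -0.49 to 0.66 for Abca9. At 6 counts in 1 control library, counting error limits the size of the Abcc9 difference as well as the number of libraries.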
